A study of Mus musculus with 3 samples.

Results

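The Hox cluster genes are described here in cerebella of Smarca5 conditional knockout (cKO) mice, set against those of wild-type mice. Members were the probes whose platform gene symbol is Hox, a cluster letter from a to d and a paralog number from 1 to 13. A total of 47 probes met this rule. They measured 37 genes of 21449 named genes with a value on every array. The HoxA cluster gave 10 genes, HoxB 10, HoxC 8 and HoxD 9.

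Both groups were C57Bl/6 mice at postnatal day 10, with RNA from dissected cerebella, and differed per the labels in genotype alone, Smarca5 cKO or wild type. Each of 3 arrays carried 1 cKO and 1 wild-type sample, labelled with different dyes. The cKO was in Cy5 on replicates 1 and 2 and in Cy3 on replicate 3, where the dyes were flipped. No source used here gives the Cre line, the cells in which Smarca5 was deleted, or whether a sample was 1 animal or a pool. The p-values therefore cover array-to-array spread alone, and this can be technical. Each value is a log2 ratio, cKO over wild type, and each SD is over the 3 arrays. The deposited log base is not stated, and fold changes hold only if it is 2.

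Hox genes encode homeodomain transcription factors that give cells their position along the head-to-tail axis. They lie in 4 clusters, and within each the gene order follows the order of expression along the body, with low paralog numbers towards the head and high ones towards the tail. The cerebellum arises mainly from the most anterior hindbrain segment, which lies in front of the Hox expression domain, whereas the hindbrain behind it and the spinal cord express Hox genes. Outside their domains, the clusters are classic targets of Polycomb repression, which acts on nucleosomes, and Smarca5 encodes a nucleosome-sliding ATPase. No intensities were used here, so whether a Hox probe stood above background is unknown, and each ratio below has to be read with that limit. In whole tissue, fewer cells of a type and less RNA per cell cannot be told apart.

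The promoters of Hoxa6 and its flanking measured genes Hoxa5 and Hoxa7 are shown because Hoxa6 had the highest ratio of all Hox genes while both flanking genes were near 0. They are the 250 bases before each gene's start, from RefSeq on GRCm38.p6, and all 3 genes are on the minus strand. Capitals mark TAAT, the core that many homeodomains bind, read on both strands. The stretches are chr6:52208673-52208922 for Hoxa6, chr6:52204588-52204837 for Hoxa5 and chr6:52218574-52218823 for Hoxa7.
Hoxa6: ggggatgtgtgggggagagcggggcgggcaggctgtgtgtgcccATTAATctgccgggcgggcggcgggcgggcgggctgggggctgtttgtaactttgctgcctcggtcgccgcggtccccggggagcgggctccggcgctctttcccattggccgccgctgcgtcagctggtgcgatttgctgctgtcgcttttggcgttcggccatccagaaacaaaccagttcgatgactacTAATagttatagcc
Hoxa5: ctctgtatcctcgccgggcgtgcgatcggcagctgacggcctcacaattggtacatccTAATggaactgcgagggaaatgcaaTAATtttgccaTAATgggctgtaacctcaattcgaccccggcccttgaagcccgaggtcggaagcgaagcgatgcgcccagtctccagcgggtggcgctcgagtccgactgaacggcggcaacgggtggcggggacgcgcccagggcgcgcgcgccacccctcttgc
Hoxa7: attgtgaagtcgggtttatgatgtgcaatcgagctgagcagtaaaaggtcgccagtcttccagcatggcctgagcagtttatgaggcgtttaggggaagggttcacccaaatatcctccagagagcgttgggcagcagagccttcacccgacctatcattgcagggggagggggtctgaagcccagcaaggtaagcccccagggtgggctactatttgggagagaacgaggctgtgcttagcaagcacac
These windows held 3 matches in Hoxa6, 3 in Hoxa5 and 0 in Hoxa7. They held 24 CpG pairs in Hoxa6, 28 in Hoxa5 and 7 in Hoxa7. Of the 37 genes, 22 had a promoter in the table, with 24 windows in all. Among these windows 75% held TAAT, against 54.9% of all 32851 windows. The Pbx-Hox type site TGATTNAT was in 2 of 24 windows (8.33%, against 2.83% of all), and TTTATNG, a core of posterior Hox and Cdx factors, in 2 of 24 (8.33%, against 9.81% of all). The median CpG count per window was 12.5 for Hox genes and 6 for all promoters.

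Smarca5 itself was below 0 throughout, at -1.22, -1.17 and -1.45 on replicates 1, 2 and 3 (mean -1.28 ± 0.15, SD, n = 3; limma's moderated test, adjusted p = 0.0824). The direction of the ratios was taken from the channels in the labels. Unnamed dye marker spots, whose sign turned on replicate 3, were looked at too. That turn was part of the rule that picked them, so they give no separate check of the direction. No probe position was used here, so the Smarca5 probe may or may not cover the deleted exons. No feature of the 29788 tested passed an adjusted p of 0.05 in limma. Cerebellar granule cell markers had a median of -1.61 over 6 genes, with Etv1 at -1.96 ± 0.18, Pax6 at -2.13 ± 0.47 and Atoh1 at -1.88 ± 0.45. Purkinje cell markers had a median of -0.06 over 4 genes, with Car8 at -0.12 ± 0.11, Pcp2 at -0.23 ± 0.62 and Calb1 at 0.01 ± 0.24.

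Hox genes as a group showed no common shift in the cKO. Their median log2 ratio was 0.02, with quartiles of -0.29 and 0.19, against a median of 0 and quartiles of -0.24 and 0.25 over all features. Of the 37 genes, 19 had a mean above 0 and 18 below 0. In limma, 0 of 37 passed an adjusted p of 0.05 (0% of all features), and the smallest adjusted p was 0.0900 (Hoxa6). At an unadjusted p under 0.05 in limma, 2 Hox genes were higher and 1 was lower, that is 5.41% and 2.70% of them, against 10.9% higher and 10.1% lower among all features. Both shares lay below the background. The same sign on all 3 arrays was seen for 5 Hox genes above 0 and 5 below 0 (13.5% each), against 22.2% above and 21.5% below among all features.

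**Figure D1:**
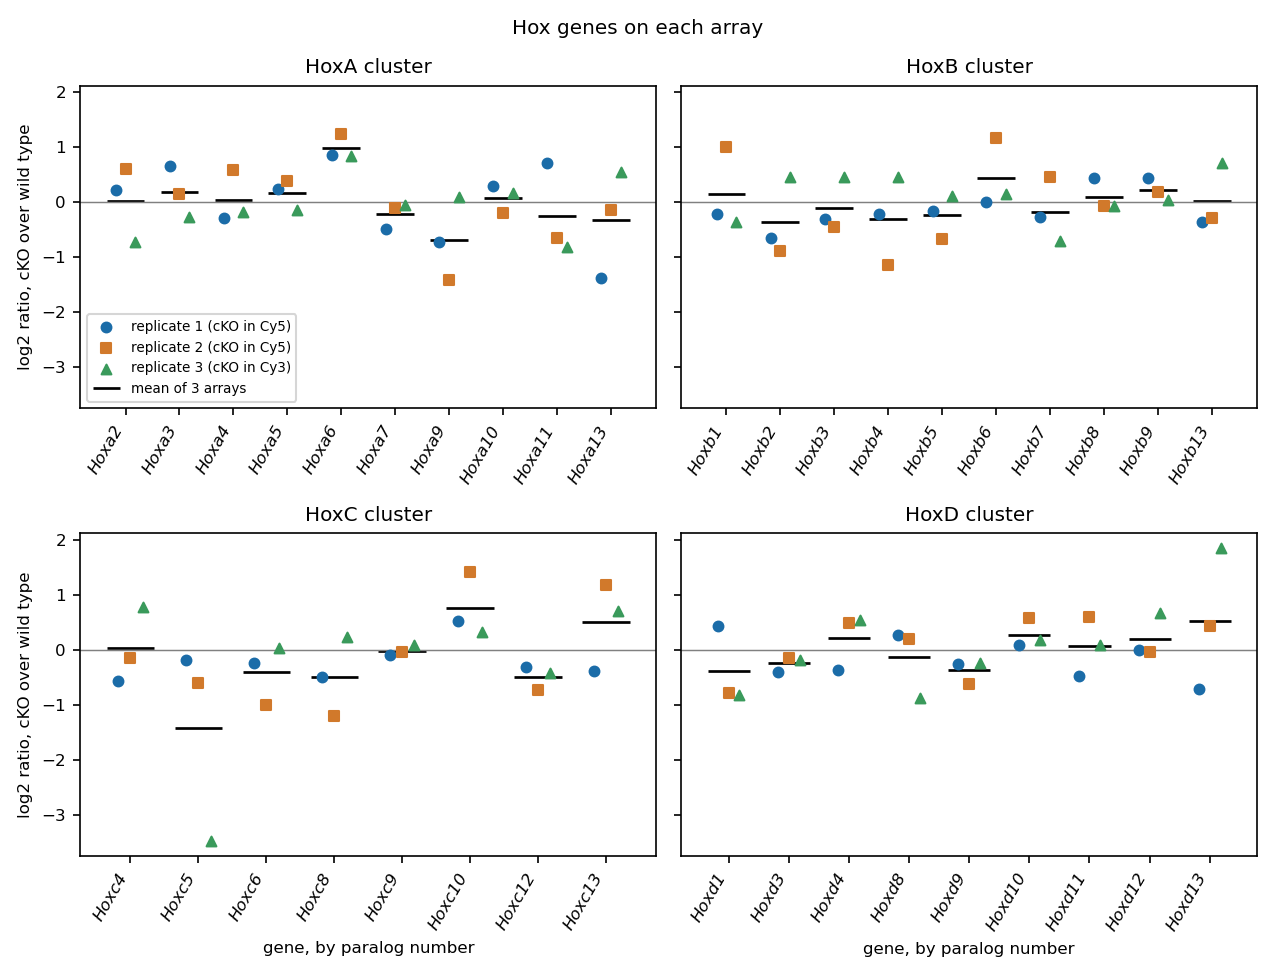
Log2 ratio of cKO over wild type (y axis) for each Hox gene (x axis, by paralog number) in 4 panels, 1 per cluster; points are the 3 arrays and bars their mean. Most genes have points on both sides of 0; Hoxa6 sits between 0.85 and 1.24.

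Hoxa6, a gene of the trunk region in the embryo, had the highest mean of the group. Its 1 probe had 0.86, 1.24 and 0.85 on replicates 1, 2 and 3. All arrays lay above 0, with a mean of 0.98 ± 0.22 (SD, n = 3), a 95% interval from 0.58 to 1.39, and a 1.98-fold difference if the base is 2. With limma the unadjusted p was 0.00232 and the adjusted p 0.0900, which missed the threshold. Of all features, 97.7% had a lower mean. Hoxa6 lies inside the spans of Hoxa3 and of the antisense RNA gene Hoxaas3 in RefSeq, and which transcripts its probe can detect is not known here. Hoxaas3 had -0.66, -0.01 and 0.37 on the arrays, without a common sign. The flanking genes did not share the value of Hoxa6: Hoxa5, which patterns lung and brainstem, had 0.24, 0.39 and -0.13, and Hoxa7 had -0.48, -0.10 and -0.04.

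Hoxc10, which with Hoxd10 gives lumbar motor neurons their identity, was the second highest. It had 0.52, 1.42 and 0.33 (mean 0.76 ± 0.58, SD, n = 3), so replicate 2 stood well above the others. Its interval ran from 0.04 to 1.47, with an adjusted p of 0.224 in limma. Without replicate 2 its mean was 0.42, and its unadjusted p was over 0.05 when any 1 array was left out. Hoxc12, a tail-end gene of its cluster, was the 1 lower gene at an unadjusted p under 0.05 in limma. Its values of -0.31, -0.74 and -0.43 were all below 0 (mean -0.49 ± 0.22, SD, n = 3; adjusted p = 0.184). That call was likewise lost when any 1 array was left out.

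Hoxc5, a gene of the neck region, had the lowest mean, but 1 array set it. It had -0.18, -0.61 and -3.48, and replicate 3 was far below the others. The mean was -1.42 ± 1.79 (SD, n = 3), with an interval from -3.43 to 0.58 and an adjusted p of 0.365 in limma. Without replicate 3 its mean was -0.40, and with the sign of that dye-flipped array turned it was 0.90.

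**Figure D2:**
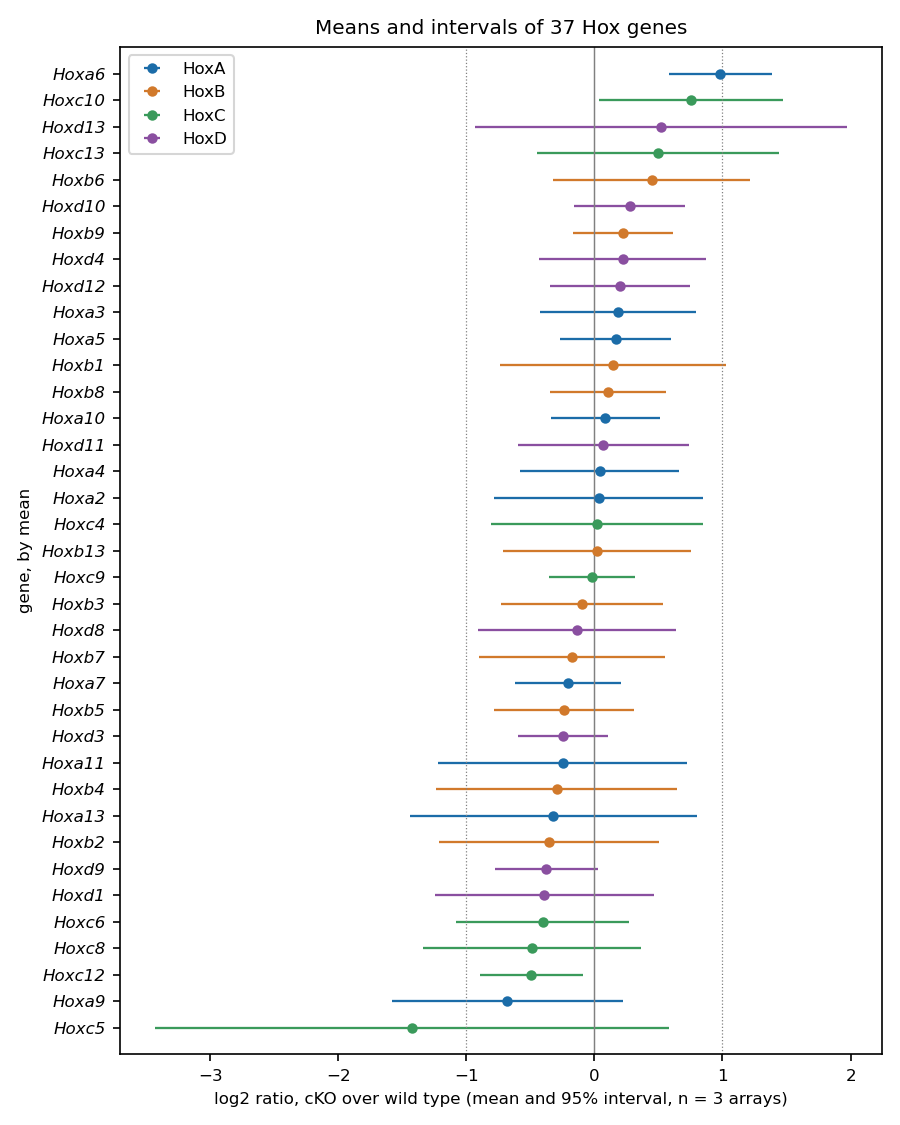
Mean log2 ratio of cKO over wild type (x axis) of the 37 Hox genes (y axis, by mean), with 95% intervals from limma and clusters in colours; dotted lines mark -1 and 1. Only the intervals of Hoxa6, Hoxc10 and Hoxc12 leave out 0, and Hoxc5 has the widest.

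The intervals say how large a difference these arrays leave possible. For 22 of 37 Hox genes the 95% interval lay between -1 and 1 (59.5%, against 67.7% of all features). The median half-width was 0.67 for Hox genes and 0.45 for all features. Hoxc9, which sets thoracic motor neuron identity, was measured most tightly, with -0.10, -0.05 and 0.09 and an interval from -0.36 to 0.32. Hoxd13, a gene of digits and the urogenital tract, was among the loosest, with -0.71, 0.43 and 1.85. For such genes a mean near or above 0.5 did not exceed the spread between arrays.

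Genes of paralog groups 1 to 4, the hindbrain end of the clusters, had a median of 0.02 over 11 genes, and the lowest and highest means were -0.39 (Hoxd1) and 0.22 (Hoxd4). Hoxb1, which specifies the segment that forms the facial motor nucleus, had -0.21, 1.00 and -0.35. Hoxb2, a partner of Hoxb1 in that segment, had -0.65, -0.88 and 0.47, and Hoxb4 had -0.22, -1.13 and 0.47. Hoxa2, the main regulator of the second branchial arch and of hindbrain segments, had 0.22, 0.60 and -0.72. Each of these 4 genes had arrays on both sides of 0. So did Hoxa4, Hoxb3 and Hoxc4, with means of 0.04 ± 0.48, -0.10 ± 0.50 and 0.02 ± 0.69. Of the 11, 0 were above 0 on all arrays and 1 was below 0 on all, Hoxd3 at -0.40, -0.15 and -0.18 (mean -0.24 ± 0.14, SD, n = 3; adjusted p = 0.377 in limma). Hoxd3 patterns the uppermost vertebrae, and its RefSeq span overlaps Hoxd4, which had -0.37, 0.49 and 0.54.

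Paralog groups 5 to 8, the genes of the neck and trunk, had a median of -0.17 over 11 genes, from Hoxc5 to Hoxa6. Hoxb6, a paralog of Hoxa6, was above 0 on all arrays at 0.01, 1.17 and 0.16, with 1 high value on replicate 2. The third paralog, Hoxc6, which helps set forelimb motor neurons, had -0.25, -1 and 0.04 as the average of probes that differed. One of them had 0.01 and 0.49 on replicates 1 and 2 and no value on replicate 3. The other had -0.51, -2.49 and 0.04. The averages of the 3 paralogs thus did not run together, but for Hoxc6 this rested on 1 probe. Hoxc8, which sets motor pools of the forelimb, had -0.49, -1.21 and 0.23. Hoxb8, known for a microglial lineage and for grooming behaviour, had 0.44, -0.06 and -0.07. Hoxb5, Hoxb7 and Hoxd8 had means of -0.23, -0.17 and -0.14, and none of the 3 kept a sign on all arrays.

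Paralog groups 9 to 13, the genes of the lower trunk, limbs and tail, had a median of 0.07 over 15 genes. Group 10 was the only one of the 13 groups whose measured genes all had means above 0. Hoxd10 had 0.08, 0.58 and 0.17 (mean 0.28 ± 0.27, SD, n = 3) and Hoxa10, a gene of the uterus and lumbar vertebrae, had a mean of 0.09 ± 0.26. Group 7 was the only one with all means below 0, with Hoxa7 and Hoxb7. In group 9 the 4 means ran from -0.68 (Hoxa9) to 0.23 (Hoxb9). Hoxd9 was below 0 on all arrays at -0.26, -0.63 and -0.24 (mean -0.38 ± 0.22, SD, n = 3; adjusted p = 0.261 in limma), and Hoxb9 above 0 at 0.45, 0.18 and 0.05. In group 13, Hoxa13 had -0.32 ± 0.97, Hoxb13 0.02 ± 0.60, Hoxc13, a gene of hair and nail, 0.50 ± 0.80, and Hoxd13 0.52 ± 1.28. The remaining genes Hoxa11, Hoxd11 and Hoxd12, limb and kidney genes among them, had means of -0.25, 0.07 and 0.20.

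By cluster, the median was 0.04 for HoxA, -0.04 for HoxB, -0.21 for HoxC and 0.07 for HoxD. The medians of the single arrays for HoxC were -0.28, -0.38 and 0.16, so that cluster's lower median was not shared by replicate 3. Adjacent measured genes of a cluster had means of 1 sign in 19 of 33 pairs. Noncoding genes inside the clusters were measured too. In HoxA, the noncoding gene Hoxa11os had 0.06, 0.10 and 0.56 and Hoxaas2 had 0.06, 0.23 and -0.92. The noncoding gene 5730596B20Rik, also in HoxA, was below 0 on all arrays at -0.47, -0.03 and -0.28 (mean -0.26 ± 0.22, SD, n = 3). Hoxb5os, whose RefSeq span overlaps Hoxb5 and Hoxb6, had -0.62, -2.14 and 0.60, and Haglr in HoxD had -0.32, -0.48 and 0.27.

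Of the 8 nearest measured protein-coding genes beside the clusters, 4 were above 0 and 1 below 0 on all arrays, against 22.2% and 21.5% of all features. Skap2, an adaptor of immune cells beside HoxA, had 1.23, 0.71 and 0.66 (mean 0.87 ± 0.32, SD, n = 3; adjusted p = 0.112 in limma). Evx1, the homeobox gene beside Hoxa13, had 0.31, 0.17 and 0.47. Next to HoxB, Ttll6, a tubulin-modifying enzyme, had a mean of 0.51 ± 0.30 and Skap1, an adaptor of T cells, 0.39 ± 0.20, and all arrays were above 0 for both. Beside HoxC, Smug1, a DNA repair enzyme, had 0.0033 ± 0.21 and Atp5g2, a subunit of ATP synthase, -0.16 ± 0.22. Beside HoxD, Evx2 had -0.22 ± 0.22 and Mtx2, a mitochondrial import protein, -0.19 ± 0.62. None of the 8 had an adjusted p under 0.05 in limma; Skap2 and Ttll6, both higher, had an unadjusted p under 0.05, against 10.9% of all features.

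The spread of the Hox ratios was set beside that of the other features. The median SD over arrays was 0.54 for Hox genes and 0.29 for all features. The SD exceeded the size of the mean in 30 of 37 Hox genes (81.1%, against 58.1% of all features). For 16 of 37 (43.2%) the sign on the dye-flipped replicate 3 was opposite to that on both other arrays, against 21.3% of all features. Of these 16 genes, 12 were below 0 with the cKO in Cy5 and above 0 with it in Cy3, among them all 5 of HoxB and all 4 of HoxC. Those 12 were 32.4% of the Hox genes, against 10.4% of all features, where 3091 turned in this direction and 3265 in the opposite one. Across the 37 genes, Pearson's r was 0.29 for replicate 1 with 2, -0.25 for 1 with 3, and 0.18 for 2 with 3. Across the other 21412 named genes it was 0.50, 0.33 and 0.28. These correlations are across genes of the same arrays and carry no test. Splitting each gene's ratio into a part that kept its sign between dye orientations and a part that turned with them gave median sizes of 0.23 and 0.33 for Hox genes, against 0.24 and 0.15 for all features. Replicate 3 was the array farthest from the gene's median for 12 of 37 Hox genes (32.4%, against 37.3% of all features). For replicate 2 this held for 14 of 37 (37.8%, against 34.6%). Only replicate 3 was flipped, so dye orientation cannot be told apart from other traits of that array. The part of the dye in single Hox ratios was not tested beyond a fit with a dye term.

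**Figure D3:**
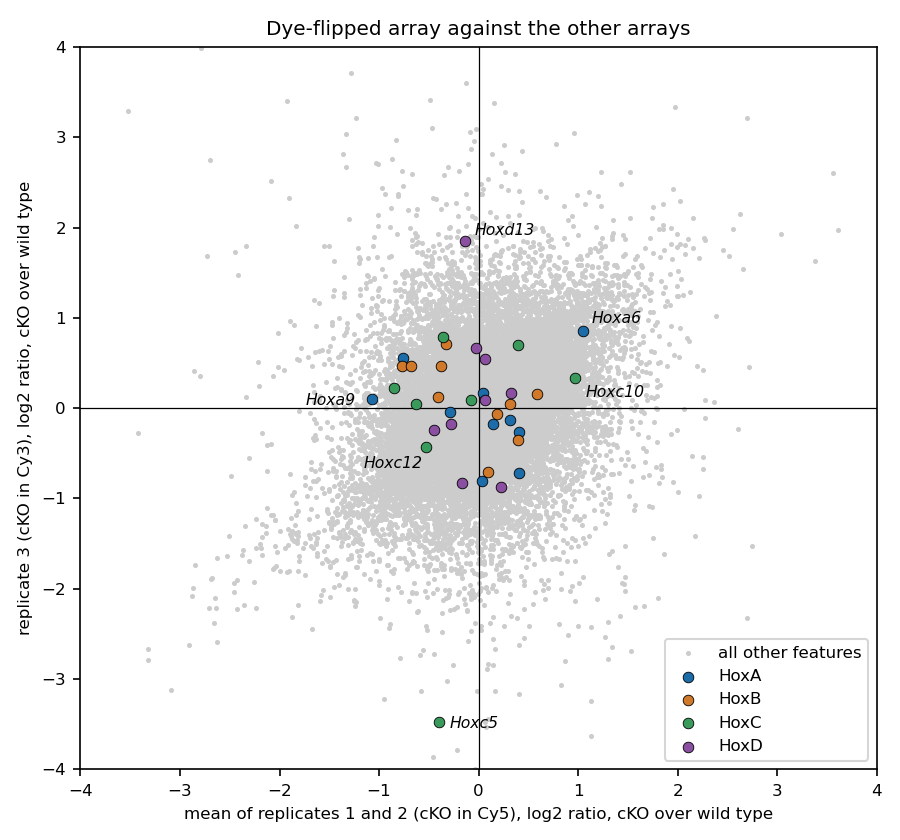
Log2 ratio on the dye-flipped replicate 3 (y axis) against the mean of replicates 1 and 2 (x axis), with Hox genes in the colours of their clusters and other features in grey; 20 other features lie outside the limits of -4 and 4. Hoxa6 and Hoxc10 are in the upper right, and many Hox genes lie in the upper left quadrant.

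With the dye term, 0 of 37 passed an adjusted p of 0.05 in limma. Hoxa6 had 0.95 in that fit (adjusted p = 0.201) and Hoxc5 -1.94 (adjusted p = 0.201), while Hoxc10 and Hoxc12 had 0.65 and -0.48. Replicate 3 is the only array of its dye orientation, so this fit passes through it exactly. Of a gene's own values, only the spread between replicates 1 and 2 enters its p-values. That spread is moderated by limma's prior, which is drawn from all features. The -3.48 of Hoxc5 on replicate 3 therefore did not count as spread there.

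Separate probes of a gene often differed. Of 9 Hox genes with several probes, 5 had probe means of 1 sign (55.6%, against 60.4% of 5923 named genes with several probes). The median gap between probe means was 0.31 for Hox genes and 0.28 for all. Hoxa3, which patterns the throat glands and hindbrain, had a probe at 0.83, 0.80 and 0.65, all above 0, and another at 0.51, -0.51 and -1.17. Tested as a probe of its own, the first had a mean of 0.76 and an adjusted p of 0.0903 in limma. Hoxa9, a gene of blood stem cells and trunk, had a mean of -0.68 ± 0.76 (SD, n = 3) that rested on 1 probe at -1.86, -3.67 and 0.86. Its other probes had -0.25, -0.12 and -0.47, and -0.06, -0.46 and -0.08. These 2 were below 0 on all arrays and averaged -0.24 ± 0.07. Hoxc6 had a missing value for 1 probe on replicate 3, so its value there came from the other probe alone.

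**Figure D4:**
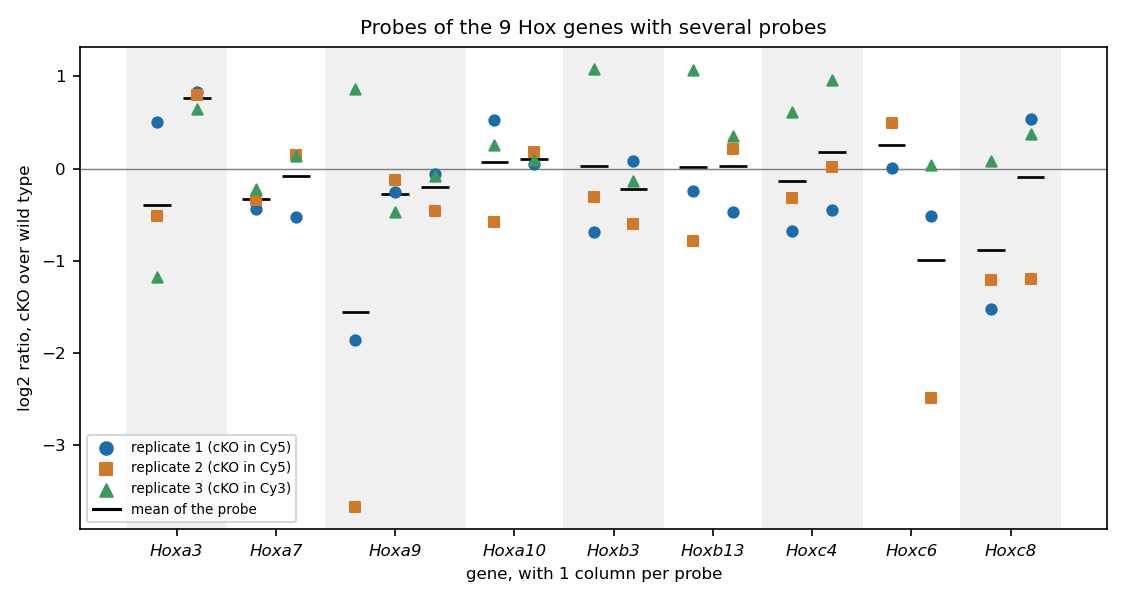
Log2 ratio of cKO over wild type (y axis) for each probe of the 9 Hox genes with several probes (x axis); points are arrays and bars are probe means. A probe of Hoxa9 reaches -3.67 on replicate 2, and the second probe of Hoxa3 keeps its 3 points between 0.65 and 0.83.

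Cofactors that bind DNA together with Hox proteins had ratios of either sign. Of 7 measured of 10, 4 were above 0 and 3 below 0 on all arrays, against 22.2% and 21.5% of all features. Pknox1 had -0.49, -0.59 and -1.01 (mean -0.70 ± 0.28, SD, n = 3; adjusted p = 0.132 in limma). Pbxip1, which binds Pbx proteins, had 0.67 ± 0.30, Pknox2 -0.45 ± 0.21 and Meis1 -0.36 ± 0.12. Their median SD was 0.14, against 0.54 for the Hox genes.

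Polycomb and trithorax genes had a median of -0.23 over 21 measured of 24, and 13 of them were below 0 on all arrays and 1 above, against 21.5% and 22.2% of all features. Bmi1, a subunit of Polycomb repressive complex 1, had -0.78, -0.68 and -0.80 (mean -0.75 ± 0.06, SD, n = 3; adjusted p = 0.0933 in limma). Eed, a subunit of Polycomb repressive complex 2, had -0.63 ± 0.09, and Kdm6a, a demethylase that removes the Polycomb mark, -0.52 ± 0.18. At an unadjusted p under 0.05 in limma, 6 of 21 were lower and 0 higher, against 10.1% and 10.9% of all features.

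Retinoic acid turns on anterior Hox genes in the hindbrain, and its genes had a median of 0.04 over 16 measured of 18. Of the 16, 4 were above 0 and 2 below 0 on all arrays, against 22.2% and 21.5% of all features. Aldh1a2, an enzyme that makes retinoic acid, had 0.54, 0.21 and 0.78. The binding proteins Crabp2 and Crabp1 had means of 0.49 ± 0.29 and 0.31 ± 0.10. The 2 below 0 were Rara at -0.51 ± 0.51 and Rdh10 at -0.43 ± 0.42. The receptor gene Rarb, itself a retinoic acid target, had -0.29, 0.02 and 0.08. At an unadjusted p under 0.05 in limma, 2 of 16 were higher and 0 lower, against 10.9% and 10.1% of all features. Among 10 measured of 12 genes of hindbrain segments and caudal patterning, Epha4, a guidance receptor of hindbrain segments, had the smallest p at 0.98 ± 0.30 (adjusted p = 0.0993 in limma). Cdx4, an activator of trunk Hox genes, had -0.71 ± 0.43, and Egr2, which activates Hoxa2 and Hoxb2, had -0.02, 0.06 and 0.33.

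Genes listed for the embryonic midbrain and isthmus, in front of the Hox domain, had ratios of both signs. Which cells express them in the cerebellum at postnatal day 10 was not examined here. Among 13 genes with a median of -0.08, En2 had -1.49 ± 0.17, Pax8 1.34 ± 0.38 and En1 0.57 ± 0.06. Homeobox genes of other clusters had a median of 0.17 over 10 genes, with the lowest mean at -0.39 (Pdx1). Of the 10, 3 were above 0 and 1 below 0 on all arrays, against 22.2% and 21.5% of all features. The 3 above were Nkx6-1 at 1.13 ± 0.24, Dlx2 at 1.01 ± 0.17 and Nkx2-2 at 0.46 ± 0.09. The 1 below was Dlx6 at -0.25 ± 0.19.

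Lists drawn up for midbrain, raphe, hindbrain and spinal neurons had these values beside the Hox genes. Whether cerebellar cells also express some of these genes, or other neuron types share them, was not examined here. Midbrain dopamine neuron markers had a median of 1.32 over 7 genes, from -1.07 (Nr4a2) to 3.39 (Slc6a3), with 5 above 0 and 1 below 0 on all arrays, against 22.2% and 21.5% of all features. Among them the vesicle transporter Slc18a2 had 3.24 ± 0.72 and Th, the first enzyme of dopamine synthesis, 1.91 ± 0.72. The list did not move as 1: besides Nr4a2 below 0, Pitx3 had 0.44, -0.19 and -0.13, without a common sign. Foxa1 and Foxa2 had means of 1.32 ± 0.62 and 0.635 ± 0.55. Raphe serotonin neuron markers had a median of 1.83 over 5 genes, from 0.81 to 3.06, with 4 above 0 on all arrays (22.2% of all features). Ddc, the enzyme that completes serotonin synthesis, had 1.83 ± 0.13, the serotonin transporter Slc6a4 3.06 ± 1.18 and Tph2 2.80 ± 1.22. Hindbrain and spinal neuron markers had a median of 0.09 over 9 genes, from -1.07 (Tlx3) to 2.67 (Dbh). Of the 9, 4 were above 0 and 2 below 0 on all arrays, against 22.2% and 21.5% of all features. Slc18a3, the transporter of acetylcholine neurons, had 1.78 ± 0.40, while Chat of the same list had 0.225 ± 0.14. Phox2a, a regulator of cranial motor and noradrenaline neurons, had -0.33, 1.00 and -0.41. The part of all these markers in the Hox ratios was not tested.

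**Figure D5:**
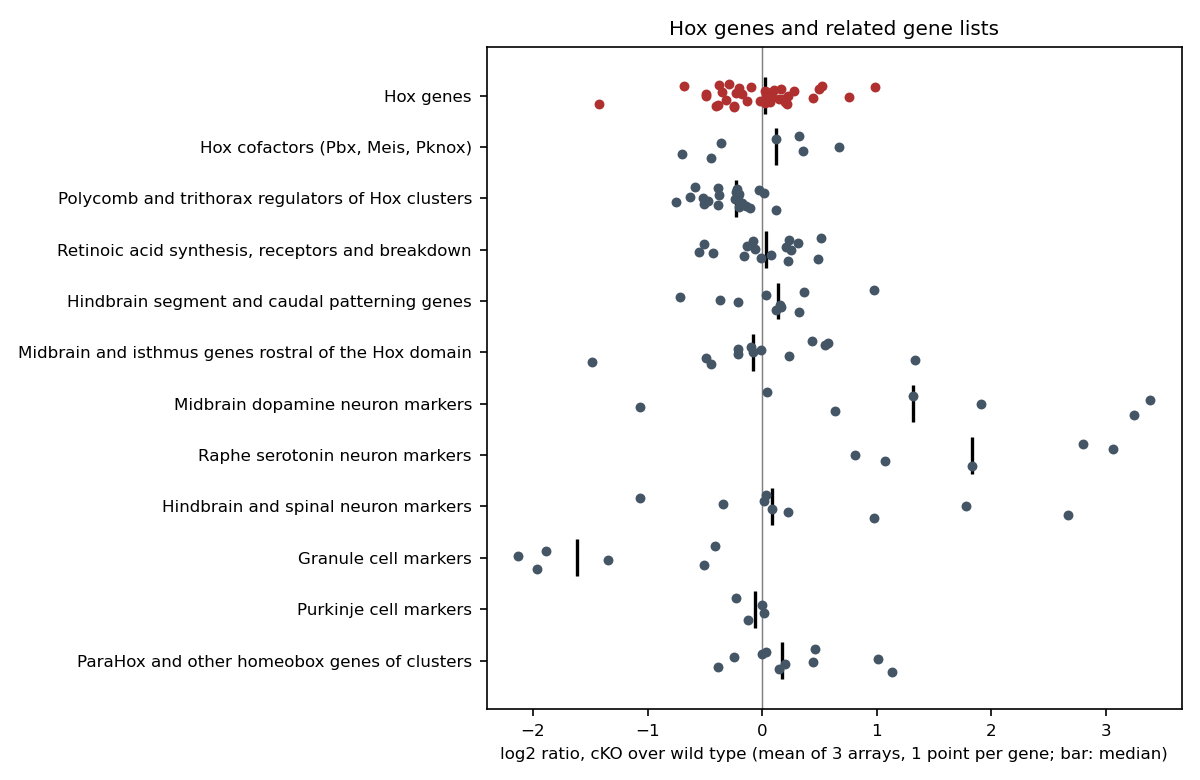
Mean log2 ratio of cKO over wild type (x axis) for the Hox genes (red) and the genes of 11 related lists (rows); each point is a gene and each bar a median. Hox genes lie from -1.42 to 0.98 around a median of 0.02, and the dopamine and serotonin lists reach 3.39 and 3.06.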

How the data were processed

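The table the authors deposited holds 1 log ratio per probe and array, centred on 0, for 38880 probes. The authors deposited these log2 values, as they are read here, after scanning and normalization steps that no label or header records, and the log base is likewise unstated. Ratios were read as channel 2 over channel 1, cKO over wild type per the labels, on every array. The platform annotation gave 30457 probes 1 symbol and left 8423 unnamed. Of the unnamed, 49 spots over 5 in size, whose sign turned with the dyes, were left out. Probes of 1 symbol were averaged per array, and features with a value on all 3 arrays were kept, 21449 named genes and 8339 unnamed probes.

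Log ratios were tested against 0 with limma 3.58.1 in R 4.3.3 (lmFit with an intercept, eBayes), with Benjamini-Hochberg adjustment over all 29788 features. The fit had 2 residual and 2.12 prior degrees of freedom. It was also run on simulated data with independent normal errors and no dye part. That run cannot show how the fit behaves where ratios turn with the dyes. The number of arrays limits the precision. List genes absent under their current symbol were matched through unique RefSeq synonyms.

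The members and lists were chosen with earlier results of these data known. The rule named Smarca5, every measured Hox gene, the 3 genes of smallest p in each list and the nearest measured gene on either side of each cluster. Other list genes were picked after their values were seen, as were the sequences shown, the count of signs turned on the dye-flipped array and the probe comparison. A total of 12 other settings and 1 chosen after seeing the data were run.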

Additional observations from a re-analysis of the deposited data

How the results depend on the processing

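In limma, 0 of 37 Hox genes passed an adjusted p of 0.05 under any of the 13 alternatives. Hoxa6 had the same sign in all of them, with log2 ratios from 0.42 to 1.05. It has 1 probe that was above 0 on all 3 arrays. Leaving out an array or combining probes otherwise therefore could not turn its sign. The largest adjusted p of Hoxa6, 0.995, came with the sign of replicate 3 turned. Turning that sign gave 0 higher Hox genes at an unadjusted p under 0.05, 12 genes below 0 on all arrays, and a HoxA median of 0.21. With a dye term 1 gene was higher at that p. Hoxc10 and Hoxc12 lost that p under both settings and without any 1 array. Over the fits that leave out 1 array each, higher genes at that p numbered from 1 to 2 and lower genes from 0 to 3. Genes above 0 on every remaining array numbered from 6 to 9 and those below 0 from 8 to 17, as fewer arrays had to share a sign. Medians ran from -0.14 to 0.10 for HoxA, from -0.11 to 0.08 for HoxB, from -0.38 to -0.06 for HoxC and from -0.19 to 0.31 for HoxD. The overall Hox median stayed between -0.05 and 0.02 under the 13 alternatives. Hoxc5, with an unadjusted p over 0.05 when all arrays were used as deposited, had -1.94 with a dye term and 0.90 with replicate 3 turned. In the dye-term fit its outlying replicate 3 adds nothing to the spread. Means changed sign for 11 of 37 genes with replicate 3 turned, 4 with a dye term and 6 to 7 without 1 array. Updating symbols added 1 probe, to Hoxd11. Each ratio already sets 1 cKO against 1 wild-type sample on its array, so the main test was itself paired. Signal over background was unknown, so no filter on dim probes was run.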
